A study of Mus musculus with 60 samples.

Results

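The Cyp4a genes of the mouse encode cytochrome P450 enzymes that hydroxylate the methyl end of fatty acids, and 6 of them are described here: Cyp4a10, Cyp4a14, Cyp4a31, Cyp4a32, Cyp4a12a and Cyp4a12b. They were taken by symbol from poly-A tables that name 55290 genes in each of 5 organs. They were chosen by their measured fold changes in the kidney and liver tables as well as by name, so those fold changes and the authors' calls on them are given as a description, and no p-value of a new test is attached to any of the 6. The tables come from 5 whole organs (brain, heart, kidney, liver and spleen) of 3 male mice deficient in Ftsj1, labelled Ftsj1_DF, and 3 wildtype males, labelled WT, all 4 months old, untreated and fed ad libitum. Ftsj1 is an X-linked methyltransferase of tRNA. Each litter sampled held both genotypes, each organ of each mouse gave 1 poly-A library, and the sources used here give neither strain nor allele. All comparisons are Ftsj1_DF against WT within 1 organ.

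Omega-hydroxylation by Cyp4a enzymes in the endoplasmic reticulum is the entry to a side route of fatty acid breakdown. The hydroxylated chain is oxidised to a dicarboxylic acid and then shortened in peroxisomes. In the kidney the same chemistry on arachidonic acid makes 20-hydroxyeicosatetraenoic acid, a lipid that acts on vessel tone and salt transport, and Cyp4a12a is known as its main source in male mice. Cyp4a10 and Cyp4a14 are classical targets of PPAR alpha, a fatty acid sensing nuclear receptor active in fasting. Cyp4a12a and Cyp4a12b are known as male-predominant genes that respond to androgen.

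The genes are near copies of each other, which bears on every value below. They lie in 1 cluster on chromosome 4 in the GENCODE M21 annotation (GRCm38), the build of the sequences used here and not the GRCm39 build named in the submitters' processing notes. In coding sequence Cyp4a10 shared 96.6% of its bases with Cyp4a31, with 52 of 1530 differing, and 97.2% with Cyp4a32, with 43 differing. Cyp4a12a and Cyp4a12b shared 98.5%, with 23 of 1527 aligned bases differing. Cyp4a14 stood alone at 75.8% to 76.8% from the other 5. Around the cysteine that holds the haem iron, the most conserved stretch of a P450, Cyp4a10, Cyp4a31 and Cyp4a32 cannot be distinguished, as 90 coding bases show. Capitals mark bases that differ from Cyp4a10.
Cyp4a10, Cyp4a31 and Cyp4a32: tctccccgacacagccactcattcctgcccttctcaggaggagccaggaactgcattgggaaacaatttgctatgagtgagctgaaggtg
Cyp4a12a and Cyp4a12b: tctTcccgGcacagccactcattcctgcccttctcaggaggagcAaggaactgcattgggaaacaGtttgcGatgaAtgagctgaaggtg
Cyp4a14: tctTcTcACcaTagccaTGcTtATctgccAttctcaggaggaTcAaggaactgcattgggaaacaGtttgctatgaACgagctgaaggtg

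Even the 60-base coding window in which Cyp4a10 and Cyp4a31 differ most, from position 106 to position 165 counted from the A of the start codon, holds only 6 differences between them and 3 between Cyp4a10 and Cyp4a32. It is shown because reads over such windows are what separates these genes in the counts. Capitals again mark differences from Cyp4a10.
Cyp4a10: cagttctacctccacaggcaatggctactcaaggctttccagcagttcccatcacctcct
Cyp4a31: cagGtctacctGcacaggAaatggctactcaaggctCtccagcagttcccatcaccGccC
Cyp4a32: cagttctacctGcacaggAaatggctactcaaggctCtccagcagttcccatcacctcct
Cyp4a12a and Cyp4a12b: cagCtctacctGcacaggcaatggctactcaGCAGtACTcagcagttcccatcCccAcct
Cyp4a14: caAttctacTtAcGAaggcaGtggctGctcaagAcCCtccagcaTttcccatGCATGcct

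Over the whole annotated transcript, 35.8% of the 100-base windows of Cyp4a12a and 36.2% of those of Cyp4a12b also occurred in another gene of the cluster, in each case the other Cyp4a12 gene. For Cyp4a32 this share was 20.1%, for Cyp4a10 12.7% and for Cyp4a31 8.22%, while Cyp4a14 had 0 shared windows of 100 bases among 2397. With windows of 50 bases the shares were 48.9% for Cyp4a12a, 49.4% for Cyp4a12b, 46.8% for Cyp4a32, 30.5% for Cyp4a10, 20.1% for Cyp4a31 and 0.245% for Cyp4a14. The annotated transcript of Cyp4a32, at 1530 bases, is coding sequence alone, so its share is not comparable with those of the others. Untranslated sequence that Cyp4a32 may share with them could not be seen. The sources used here give neither read length nor the treatment of reads that match several genes, so the split of counts among Cyp4a10, Cyp4a31 and Cyp4a32, and between Cyp4a12a and Cyp4a12b, is uncertain. Cyp4a14 is the member whose counts are least open to such sharing.

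The authors' deposited tables hold, for each gene, the mean normalised count over the 6 libraries of an organ, the log2 fold change with its standard error, and the p-values of their DESeq2 test. They hold no value per library, so single mice cannot be shown. Ftsj1 itself, which checks the labels, stood at 8.79% to 15.4% of WT in the 5 Ftsj1_DF organs by the authors' deposited table. Depth per library is unknown, but the smallest mean levels, those of genes with 1 read in 1 library, gave the ratio between the largest and the smallest library. It was 18.0 in kidney, 11.4 in heart, 6.46 in brain, 4.80 in liver and 2.14 in spleen. Defining markers of kidney and liver were present, 8 hepatocyte markers making up 10.7% of the summed level in liver and 8 proximal tubule markers 1.17% in kidney. In whole organs fewer cells of a type and less RNA per cell cannot be told apart. A gene is written to have risen or fallen only where the authors' adjusted p was under 0.05.

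The 6 genes were expressed in liver and kidney and were at traces in the other organs. In each organ the level of a gene is its mean normalised count over 6 libraries as a share of the summed mean of all genes, in ppm (1 ppm being 0.0001%). Together the 6 genes made up 0.185% of the summed level in liver and 0.0862% in kidney. Cyp4a14 had 751 ppm in liver and 73.7 in kidney, Cyp4a10 had 645 in liver and 371 in kidney, and Cyp4a12a had 285 in liver and 76.8 in kidney. Cyp4a12b had 90.2 in liver and 22.5 in kidney, and Cyp4a32 had 57.5 in liver and 34.1 in kidney. In these means over both genotypes all 5 of these genes were higher in liver than in kidney. The ratio was 1.69 for Cyp4a32, 1.74 for Cyp4a10, 3.72 for Cyp4a12a, 4.00 for Cyp4a12b and 10.2 for Cyp4a14. Cyp4a31 ran the other way, with 18.8 ppm in liver and 284 in kidney, 15.1 times higher in kidney. These are means over both genotypes without an error, since the authors' deposited tables give none for a level, and each organ was scaled on its own. The order does not hold for every gene in WT alone. By the WT levels that the mean and the fold change imply, Cyp4a32 had 37.7 ppm in liver and 39.9 in kidney. Cyp4a10 had 314 in WT livers and 273 in WT kidneys.

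**Figure D1:**
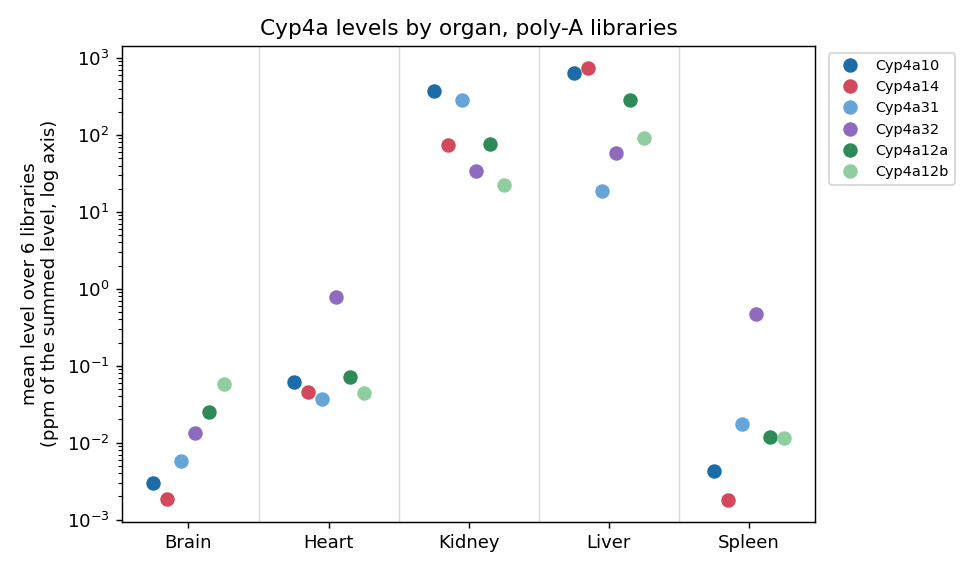
Mean level of each Cyp4a gene in the poly-A libraries of 5 organs, ppm of the organ's summed level, on a log axis; each point is the mean over the 6 libraries of both genotypes. All 6 genes lie between 18.8 and 751 ppm in kidney and liver and below 1 ppm in brain, heart and spleen, where Cyp4a32 is the highest in heart and spleen.

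Divided by transcript length, Cyp4a10 and Cyp4a14 were nearly level in liver in the means over both genotypes, with 306 and 301 ppm per kilobase. They were followed by Cyp4a12a with 118, Cyp4a12b with 37.6 and Cyp4a31 with 7.47. In kidney the order was Cyp4a10 with 176 ppm per kilobase, Cyp4a31 with 113, Cyp4a12a with 31.7, Cyp4a14 with 29.5 and Cyp4a12b with 9.40. Cyp4a32 is left out of this order because its annotated transcript of 1530 bases is coding sequence alone, against 2109 to 2509 bases for the other 5, so that a value per length would not be comparable. Cyp4a10 ranked 272nd of all genes by mean normalised count in kidney and 181st in liver, where Cyp4a14 ranked 156th. These orders and ranks pool both genotypes. In liver the implied level of Cyp4a14 was 1287 ppm in Ftsj1_DF and 214 in WT, and that of Cyp4a12a 233 in Ftsj1_DF and 338 in WT. For Cyp4a10 it was 975 ppm in Ftsj1_DF and 314 in WT, so the order of these genes differed between the genotypes.

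In brain, heart and spleen 5 of the 6 genes had at most 12.9 mean normalised counts, or 0.0713 ppm. The exception was Cyp4a32, with 111 counts (0.787 ppm) in heart and 59.7 (0.467 ppm) in spleen, against 3.05 (0.0135 ppm) in brain. The closely related Cyp4a10 had 8.75 counts in heart and 0.555 in spleen, and Cyp4a31 had 5.25 in heart and 2.20 in spleen.

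In liver 4 of the 6 genes rose, where 2.29% of the 18263 genes with an adjusted p were called, 0.887% higher and 1.41% lower. Cyp4a14 rose 6.02-fold (95% interval 4.35 to 8.32), a log2 fold change of 2.59 ± 0.24 (SE) with an adjusted p of 1.33e-23 in the authors' deposited table. Only 2 genes had a smaller p in that table. Cyp4a10 rose 3.11-fold (2.23 to 4.32), with a deposited log2 fold change of 1.64 ± 0.24 and an adjusted p of 1.80e-08. Its close copies rose as well in the authors' deposited table, Cyp4a31 2.85-fold (2.07 to 3.93) with an adjusted p of 9.98e-08 and Cyp4a32 2.05-fold (1.53 to 2.74) with an adjusted p of 0.00032. The 2 remaining genes lay on the other side of 0. Cyp4a12b was at 0.614 of the WT level (0.455 to 0.828), with a deposited log2 fold change of -0.70 ± 0.22 and an adjusted p of 0.0583, and Cyp4a12a was at 0.689 (0.521 to 0.911), with -0.54 ± 0.21 and an adjusted p of 0.181. Neither passed. Of the 8 hepatocyte markers 0 were called by DESeq2 in liver and 1 had an unadjusted p under 0.05. Their summed level implied by the tables was 106006 ppm in Ftsj1_DF and 108940 in WT livers. Of 8 markers of periportal hepatocytes 1 fell, Arg1 (-0.39 ± 0.12, adjusted p of 0.0434 in the authors' deposited table). In that list 3 had an unadjusted p under 0.05, all lower. Of 7 markers of pericentral hepatocytes 0 were called by DESeq2 and 2 had an unadjusted p under 0.05, 1 of them higher. The part of these zones in the liver values was not tested. Adipocyte markers, at a summed level of 5.20 ppm in Ftsj1_DF and 14.6 in WT livers, included 2 of 5 that fell, Cfd and Cidec, and their part in the liver values was not tested.

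In kidney 3 of the 6 genes were called, 2 higher and 1 lower, where 0.987% of the 23313 genes with an adjusted p were called, 0.339% higher and 0.648% lower. Cyp4a10 rose 1.73-fold (1.40 to 2.13), with a log2 fold change of 0.79 ± 0.15 and an adjusted p of 0.00012 in the authors' deposited table. Cyp4a31 rose 1.30-fold (1.14 to 1.48), with a deposited log2 fold change of 0.38 ± 0.10 and an adjusted p of 0.0178. Cyp4a32 fell to 0.709 of the WT level (0.585 to 0.858), with a deposited log2 fold change of -0.50 ± 0.14 and an adjusted p of 0.0445. That call is the least firm of the 7 in kidney and liver, since the adjusted p was 0.0674 when adjusted over every gene with a p and 0.0944 when adjusted over the 5 organs together. Of the 8 proximal tubule markers 0 were called by DESeq2 in kidney, as were 0 of 7 markers of the last tubule segment, and 1 of each list had an unadjusted p under 0.05. The 8 markers summed to 11400 ppm in Ftsj1_DF and 12088 in WT kidneys. Adipocyte markers summed to 179 ppm in Ftsj1_DF and 122 in WT kidneys, with 5 of 6 above 0 and a median log2 fold change of 0.29. Of these 0 were called by DESeq2, and 1 was lower at an unadjusted p under 0.05. The part of adipocytes in the kidney values, here and in the gene lists below, was not tested.

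Cyp4a14 had almost the same fold change in kidney as in liver but was not called there. Its kidney value was 5.59-fold, with a 95% interval from 1.99 to 15.7, and the authors' deposited table gave 2.48 ± 0.76 with an adjusted p of 0.0939. The standard error was 3.19 times that of liver. A spread between mice can be estimated from it, if the variance is taken to be alike in both genotypes, and gave a coefficient of variation of 64.7% for Cyp4a14 in kidney. That is above the value for 99.9% of the 12859 kidney genes with 1000 or more mean counts, whose median was 8.43%. For Cyp4a12a the estimate in kidney was 44.2% and for Cyp4a12b 30.8%, also above 99% of those genes, whereas Cyp4a10 had 13.1%, Cyp4a32 11.9% and Cyp4a31 8.34%. In liver the 6 genes lay between 17.5% and 20.6%, against a median of 12.0%. The kidney values of Cyp4a14, Cyp4a12a and Cyp4a12b rest on a wide spread among 6 mice, which the tables do not resolve into single animals. In the authors' deposited table Cyp4a12a in kidney had -0.69 ± 0.52 and Cyp4a12b 0.34 ± 0.36, each with an adjusted p of 1.00.

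**Figure D2:**
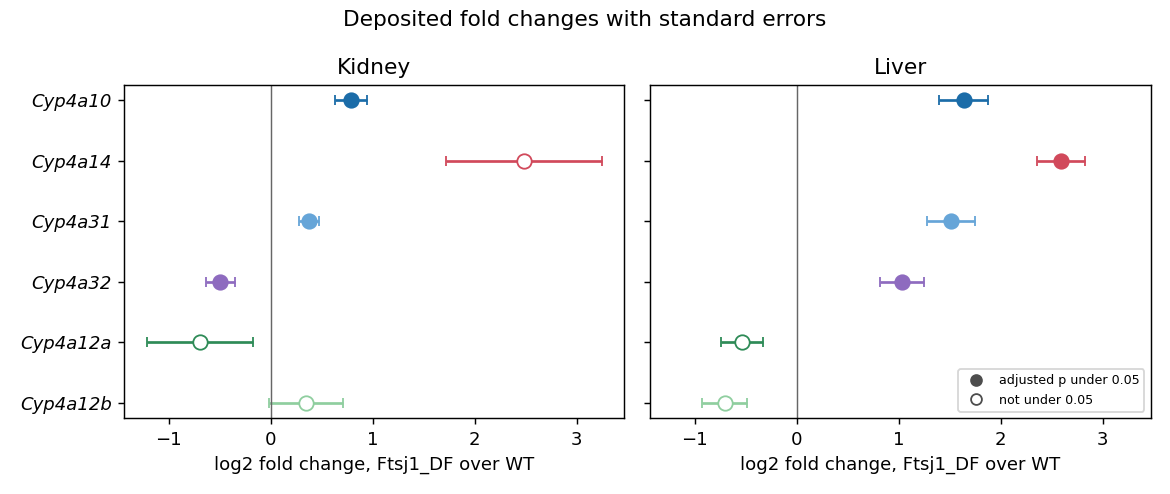
Log2 fold change of each Cyp4a gene, Ftsj1_DF over WT, in kidney and liver, as deposited by the authors; bars are standard errors, and filled points have an adjusted p under 0.05. Cyp4a14 lies at 2.48 in kidney and 2.59 in liver with very different errors, and Cyp4a32 lies at -0.50 in kidney and 1.03 in liver.

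Kidney and liver were also set side by side. The kidney log2 fold change minus that of liver was -1.53 ± 0.26 for Cyp4a32 (95% interval -2.03 to -1.02), -1.13 ± 0.26 for Cyp4a31 (-1.63 to -0.63) and -0.85 ± 0.29 for Cyp4a10 (-1.41 to -0.29). For Cyp4a12b the difference was 1.05 ± 0.42 (0.22 to 1.88). For Cyp4a14 it was -0.11 ± 0.80, with an interval from -1.67 to 1.46, and for Cyp4a12a -0.16 ± 0.56 (-1.25 to 0.94), so that a large organ difference in either direction lies within the interval. The same 6 mice gave both organs, and the errors were combined as if the organs were independent. Of 17950 genes with an adjusted p in both organs 24 were called in both (0.134%), Cyp4a10, Cyp4a31 and Cyp4a32 among them. Cyp4a32 was 1 of the 4 called in opposite directions (0.0223%).

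A sum over near copies does not depend on how reads were split among them, although reads left out for matching several genes would still be missing from it. From the mean level and the fold change a level in each genotype can be derived, taking the mean as the midpoint of the genotypes. Cyp4a10, Cyp4a31 and Cyp4a32 together then had 1080 ppm in Ftsj1_DF and 361 in WT livers, a ratio of 2.99, and 819 ppm in Ftsj1_DF and 559 in WT kidneys, a ratio of 1.46. Cyp4a12a and Cyp4a12b together had 301 ppm in Ftsj1_DF and 450 in WT livers, a ratio of 0.670, and 83.9 ppm in Ftsj1_DF and 115 in WT kidneys, a ratio of 0.731. All 6 genes summed to 2669 ppm in Ftsj1_DF and 1025 in WT livers, and to 1028 ppm in Ftsj1_DF and 696 in WT kidneys. These sums carry no error, because the covariance among genes is not known.

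The make-up of the Cyp4a messages can be derived in the same way, again with no error. Cyp4a14 made up 48.2% of the Cyp4a counts in Ftsj1_DF livers and 20.9% in WT livers, and Cyp4a12a 8.72% in Ftsj1_DF and 33.0% in WT livers. Cyp4a10 took 36.5% in Ftsj1_DF and 30.6% in WT livers. In kidney Cyp4a14 made up 12.2% in Ftsj1_DF and 3.21% in WT, Cyp4a12a 5.71% in Ftsj1_DF and 13.6% in WT, and Cyp4a10 45.8% in Ftsj1_DF and 39.2% in WT. Cyp4a31 had 31.2% in Ftsj1_DF and 35.4% in WT kidneys, and close to 1% in livers of either genotype. These shares are of counts and not per length.

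**Figure D3:**
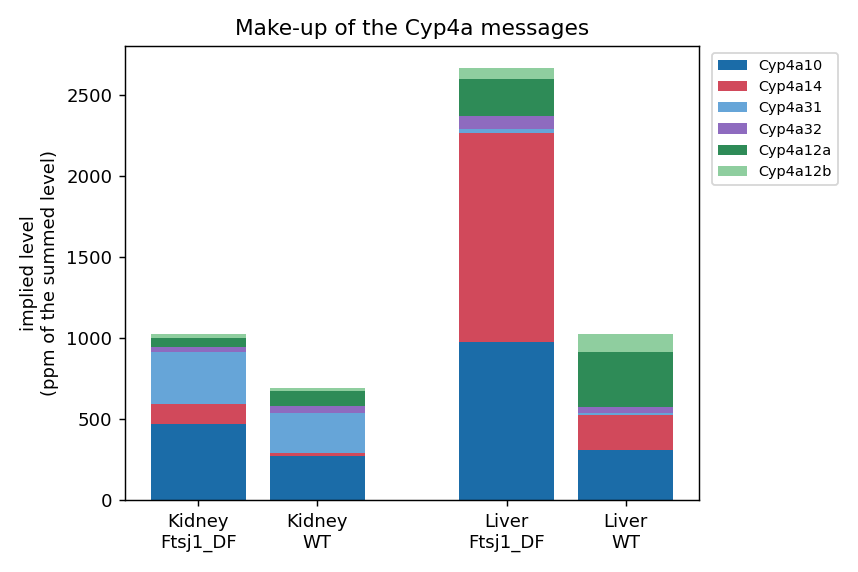
Levels of the 6 Cyp4a genes implied by the deposited mean and fold change, stacked, ppm of the organ's summed level, for Ftsj1_DF and WT in kidney and liver; no error is known for these derived values. The liver total is 2669 in Ftsj1_DF and 1025 in WT, and Cyp4a14 accounts for 1287 of it in Ftsj1_DF and 214 in WT.

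Outside liver and kidney 0 of the 6 genes were called in brain, where 0.0607% of genes were, in heart, where 0.541% were, or in spleen, where 0.0741% were. The authors' adjusted p was given for 5 members in heart, 1 in spleen and none in brain. Before adjustment the DESeq2 p was under 0.05 for Cyp4a32, Cyp4a12a and Cyp4a12b in heart and for Cyp4a32 in spleen. The deposited log2 fold change of Cyp4a32 was 0.66 ± 0.32 in heart, with an adjusted p of 0.566, and 1.10 ± 0.38 in spleen, with an adjusted p of 0.387. At about 10 and 6 mean counts, Cyp4a12a and Cyp4a12b had -5.15 ± 1.67 and -4.31 ± 1.90 in heart in the authors' deposited table, at adjusted p of 0.169 and 0.467. Hepatocyte markers lay the same way in heart: all 8 were below 0, 0 were called by DESeq2, 4 had an unadjusted p under 0.05, their median log2 fold change was -3.40, and their summed level was 7.21 ppm in Ftsj1_DF and 29.0 in WT hearts. Adipocyte markers did too, with 6 of 6 below 0, 1 of them called, at a summed level of 25.9 ppm in Ftsj1_DF and 98.8 in WT hearts. The part of these cells in the heart values was not tested.

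The neighbours of the 6 genes were also read. Cyp4b1, a P450 of the same family that lies next to Cyp4a32 on the opposite strand, is one of the most abundant kidney genes here with 2127 ppm. It fell in kidney, with a log2 fold change of -0.60 ± 0.11 and an adjusted p of 1.17e-05 in the authors' deposited table, and had 0.12 ± 0.15 in liver with an adjusted p of 0.883. Cyp4a32 and this neighbour had similar fold changes in kidney (-0.50 and -0.60) and in spleen (1.10 and 0.90), but not in liver (1.03 and 0.12) or heart (0.66 and 0.06). The pseudogenes Cyp4b1-ps2 and Cyp4b1-ps1, on the opposite strand between Cyp4a10 and Cyp4a32, had deposited log2 fold changes of -0.40 ± 0.31 and -0.46 ± 0.22 in kidney, neither called. In spleen Cyp4b1-ps2 had 0.86 ± 0.36, with an adjusted p of 0.622. The sources used here do not say whether counting used the strand, and a part of reads from Cyp4b1 in the Cyp4a32 counts was not tested. Efcab14, the nearest coding gene beyond Cyp4b1, had -0.03 ± 0.09 in kidney and -0.01 ± 0.12 in liver in the authors' deposited table. The pseudogenes Gm12834, Gm12833 and Gm12848 in and around the cluster were not called in either organ. Cyp4a29 and Cyp4a30b, the remaining intact Cyp4a genes of the cluster, had at most 6.84 mean counts in any organ. Cyp4x1os, the non-coding gene at the edge of the cluster, reached 276 mean counts in the rRNA-depleted brain libraries, at a log2 fold change of -0.11 ± 0.23 in the authors' deposited table, and at most 6.06 in the other 4 organs.

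Of the wider Cyp4 family, 14 further genes were listed. In kidney 0 of 11 with an adjusted p rose and 1 fell, Cyp4b1, and in liver 0 of 9 were called in either direction by DESeq2, with 0 at an unadjusted p under 0.05. Their median log2 fold change among genes with 10 or more mean counts was -0.07 in kidney and 0.09 in liver, against 0.01 in each organ over all genes. Cyp4f14, an abundant liver omega-hydroxylase of leukotrienes, had -0.003 ± 0.120 in liver and 0.42 ± 0.13 in kidney in the authors' deposited table, at adjusted p of 0.997 and 0.126.

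PPAR alpha itself was not called. Ppara had a log2 fold change of -0.01 ± 0.12 in kidney and 0.11 ± 0.15 in liver in the authors' deposited table, at adjusted p of 1.00 and 0.821. Of 21 receptors and coregulators of this pathway 0 were called in either organ by DESeq2, with 1 in kidney and 2 in liver at an unadjusted p under 0.05 and medians of 0.02 in kidney and 0.07 in liver. Among its targets outside the Cyp4a family, 8 of 30 rose and 1 fell in kidney, with a median of 0.25, and 4 of 30 rose and 0 fell in liver, with a median of 0.22. Over all genes with an adjusted p, 0.339% rose and 0.648% fell in kidney, and 0.887% rose and 1.41% fell in liver. Of the targets with 10 or more mean counts, 26 of 30 were above 0 in kidney and 25 of 30 in liver. The median over all genes of that level was 0.01 in each organ. The list of targets was written with results of these data known, and its counts are a description.

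Several of these targets were called in 1 organ and not in the other. Pdk4, which restrains glucose oxidation, had log2 fold changes of 1.09 ± 0.12 in kidney and 1.25 ± 0.54 in liver in the authors' deposited table and was called only in kidney, and the organ difference of -0.16 ± 0.55 did not pass a z-test adjusted by Benjamini-Hochberg over 19100 genes (adjusted p of 1.00), which 0.817% of genes passed. Angptl4, an inhibitor of lipoprotein lipase, rose in kidney by 0.73 ± 0.12 and had 0.24 ± 0.21 in liver, with a difference of 0.49 ± 0.24 that did not pass (adjusted p of 0.758). Fgf21, a hormone secreted by the fasting liver, rose in liver by 2.38 ± 0.21 (adjusted p of 3.81e-27 in the authors' deposited table) and was at trace level in kidney. Acot2, a mitochondrial thioesterase with close paralogs, rose in both, by 0.52 ± 0.10 in kidney and 0.93 ± 0.21 in liver, at deposited adjusted p of 3.79e-05 and 0.000959, and its organ difference of -0.41 ± 0.23 did not pass (adjusted p of 0.904). Cd36, a fatty acid transporter, was the target that fell in kidney, by 0.34 on the log2 scale (adjusted p of 0.0269 in the authors' deposited table).

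**Figure D4:**
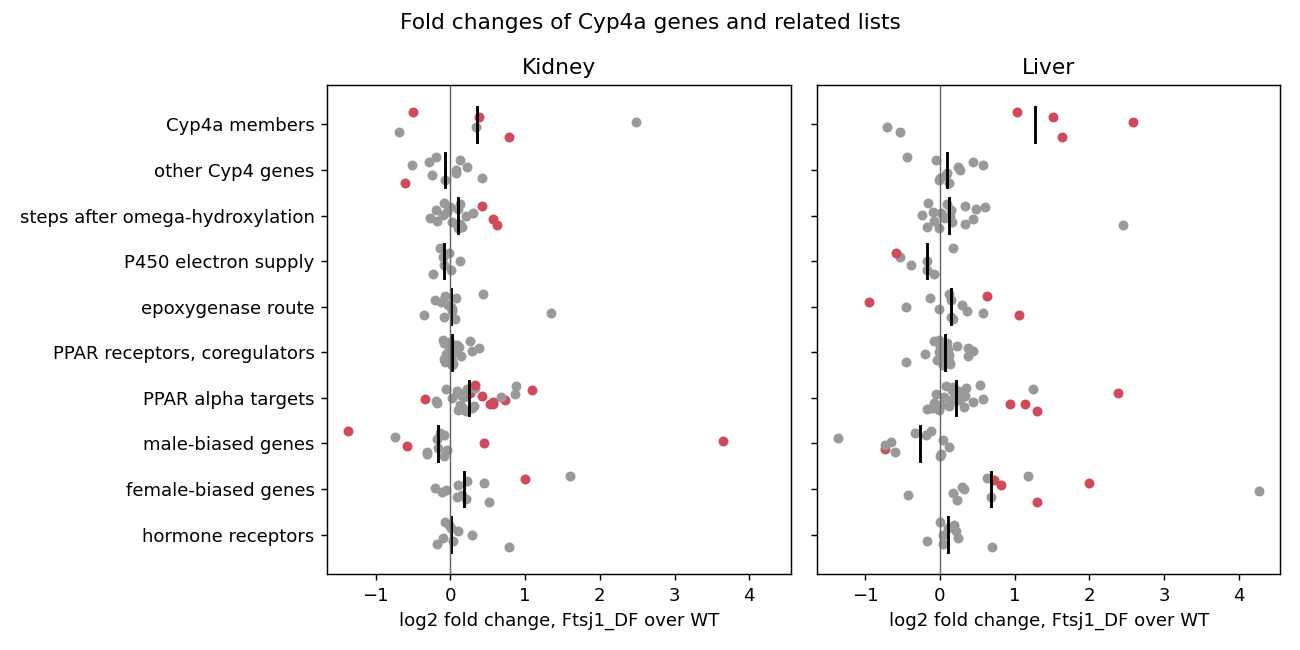
Log2 fold changes, Ftsj1_DF over WT, of the 6 Cyp4a genes and of the members of 9 related gene lists with 10 or more mean counts, in kidney and liver; each point is a gene, red points have an adjusted p under 0.05, and black bars are list medians. PPAR alpha targets have medians of 0.25 in kidney and 0.22 in liver, and female-biased genes 0.18 in kidney and 0.68 in liver.

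For the steps after omega-hydroxylation, of 18 genes of this route with an adjusted p, 3 rose and 0 fell in kidney with a median of 0.11. Of all genes there 0.339% rose and 0.648% fell. In liver 0 were called by DESeq2 and 5 were higher at an unadjusted p under 0.05, with a median of 0.11 as well. Those that rose in kidney were Acot3, a peroxisomal thioesterase, with a deposited log2 fold change of 0.63 ± 0.13, Acsl1, which activates fatty acids to their CoA esters, with 0.57 ± 0.13, and Ehhadh, the peroxisomal bifunctional enzyme that acts on dicarboxylic chains, with 0.42 ± 0.11. Their adjusted p in the authors' deposited table were 0.000575, 0.00161 and 0.0295. In liver Acot3 had 2.45 ± 0.90 (adjusted p of 0.150), Acsl1 0.44 ± 0.18 and Ehhadh 0.33 ± 0.13 by the same tables, none of them called. Their organ differences did not pass the z-test, with an adjusted p of 0.797 for Acot3, whose difference was -1.82 ± 0.91, and of 1.00 for Acsl1 and Ehhadh. Acaa1a and Adh7 are listed at 0 in every organ, as are Cpt1b among the PPAR alpha targets, G6pdx and Hsd3b5, and could not be tested.

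The enzymes that feed electrons to P450s showed 0 of 7 called by DESeq2 in kidney, with 1 at an unadjusted p under 0.05 and a median of -0.08. In liver 1 of 7 was called and 3 had an unadjusted p under 0.05, all lower. The liver median was -0.17, with 1 of 7 above 0. Of all genes in liver 2.29% were called, 1.41% lower. The called gene was Pgd, which makes NADPH in the pentose phosphate route. It fell in liver by 0.58 on the log2 scale (SE 0.14, adjusted p of 0.0024 in the authors' deposited table). Por, the reductase that supplies every microsomal P450, had -0.14 ± 0.10 in kidney and 0.17 ± 0.19 in liver in the authors' deposited table. A list drawn up around the competing route from arachidonic acid to epoxides also held genes outside that route, Cyp2u1, Ptgs1 and Ptgs2 among them. In kidney 0 of its 13 genes with an adjusted p were called by DESeq2, with 1 at an unadjusted p under 0.05. In liver 2 rose and 1 fell of 13, where 0.887% of all genes rose and 1.41% fell. Cyp2c38, an epoxygenase with close paralogs, rose in liver by a deposited log2 fold change of 1.05 ± 0.19, Pla2g4a, the phospholipase that frees arachidonic acid, rose by 0.63 ± 0.18, and Cyp2u1 fell by 0.96 ± 0.26 on the log2 scale, with adjusted p in the authors' deposited table of 1.87e-05, 0.0194 and 0.0145.

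Because Cyp4a12a and Cyp4a12b are known as male-predominant, the sex-biased genes of both organs were set beside them. Over all genes with an adjusted p, 0.887% rose and 1.41% fell in liver, and 0.339% rose and 0.648% fell in kidney. Of male-biased genes with an adjusted p, 0 of 12 rose and 1 fell in liver, with a median log2 fold change of -0.27 and 4 of 12 above 0. In kidney 2 of 15 rose and 2 fell, with a median of -0.17 and 2 of 13 genes of sufficient level above 0. Cyp2d9, a steroid hydroxylase with close paralogs, fell in liver by 0.74 on the log2 scale (SE 0.19, adjusted p of 0.00634 in the authors' deposited table). In kidney Slco1a1, an organic anion transporter, fell by 1.37 (SE 0.28) and Cyp2j13 by 0.58 (SE 0.10), at adjusted p of 0.000379 and 1.10e-05 by DESeq2 in the authors' deposited table, while Elovl3, a fatty acid elongase, rose there by 3.65 ± 0.89 at a mean level of 0.462 ppm.

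Of female-biased genes 4 of 12 rose and 0 fell in liver, with a median of 0.68 and 12 of 13 above 0, where 0.887% of all genes rose. In kidney 1 of 12 rose and 0 fell, with a median of 0.18, where 0.339% of all genes rose. The liver genes that rose with the smallest adjusted p were Abcd2, a peroxisomal transporter of long fatty acids that is also counted among the PPAR alpha targets, with a deposited log2 fold change of 1.30 ± 0.27, Fmo2, a flavin monooxygenase, with 0.81 ± 0.17, and Prlr, the prolactin receptor, with 0.73 ± 0.20. In kidney Slc22a29, a transporter, rose by 1.00 ± 0.14 (adjusted p of 5.21e-09 in the authors' deposited table). Of 9 hormone receptors and their mediators 0 were called by DESeq2 in kidney, with 2 at an unadjusted p under 0.05. The part of any of these genes in the values of Cyp4a12a and Cyp4a12b was not tested.

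Among genes outside the family, those whose pair of kidney and liver fold changes lay nearest to that of Cyp4a10 were 5730420D15Rik, Tas1r2 and Tsga10ip, at Euclidean distances of 0.11, 0.17 and 0.22 on the log2 scale. Of these, 5730420D15Rik was called in liver (1.58 ± 0.39, adjusted p of 0.00533 in the authors' deposited table) and the other two in neither organ. Nearest to Cyp4a12a was Clec2d, at 0.01, which fell in both organs, with -0.70 ± 0.15 in kidney and -0.54 ± 0.16 in liver in the authors' deposited table. Next were Cdk15 and Zfp872, at 0.02 and 0.05, both called in neither organ. Cyp4a14 had no near neighbour: the closest genes, Ighg3, Gm7096 and Fut1, lay 0.90, 1.43 and 1.52 away. By level over the 5 organs, compared as the root mean square difference of log2(ppm + 1), Serpinf2, Abcc2 and Hgd were closest to Cyp4a10, Cyp2d26, Nat8f2 and Cyp2d9 to Cyp4a14, and Akr1d1, Uroc1 and Acsm1 to Cyp4a12a, at 0.20 to 0.43. Of these 9 genes Cyp2d26 was called in kidney (0.42 ± 0.10, adjusted p of 0.00355) and Cyp2d9 in liver, and the other 7 in neither organ of the authors' deposited table.

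The promoter table at hand, from RefSeq on GRCm38.p6, held 250 bases before and 50 after the start of 1 of the 6 genes, Cyp4a32. The site AGGTCA, which PPAR and RXR are known to bind as a repeat, was searched on both strands and occurred in 5340 of 32851 promoters (16.3%) and not in that window of Cyp4a32. A direct repeat of it with 1 base between, with any base allowed at the fourth position of each site, occurred in 125 promoters (0.381%) and not in the Cyp4a32 window.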

How the data were processed

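RNA of whole organs was sequenced as stranded poly-A libraries, and the submitters' processing notes name GRCm39, featureCounts of Subread 2.0.3 and DESeq2; the sources used here give no aligner, annotation, strand setting or treatment of multi-mapping reads. Per the file headers, the authors deposited the mean signal over 6 libraries (normalised counts), the log2 fold change with its standard error, the Wald score and the p-value with its adjusted value. The sign, Ftsj1_DF over WT, was read from Ftsj1, and an entry without a name was left out. No count test could be made without values per library, so calls are the authors' (adjusted p under 0.05).

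From these columns levels in ppm of the summed level, levels implied for each genotype, an estimated spread between mice and differences between kidney and liver were computed with pandas 2.3.3 and SciPy 1.17.1. For genes outside the family that difference was tested by a z-test, adjusted by Benjamini-Hochberg, at 10 or more mean counts in both organs. A run on simulated data drew both organs independently with the deposited standard errors, as the test itself assumes. It could therefore not show how the test behaves for organs of the same mice. Coding sequences were aligned with MAFFT 7.526. Nothing ties replicates to separate preparations beyond the mice, so p-values measure the spread among these mice. The members, the gene lists and the rule for named genes (every member, up to 4 called genes of each list by smallest adjusted p in kidney or liver, Ppara, up to 5 neighbours on each side and the 3 nearest genes by likeness) were chosen with earlier results of these data known. Por, Cyp4f14 and Cd36 were named after their values were seen. Alternatives were another adjustment, a stricter threshold, another centring and another scaling of levels. A gene of the PPAR alpha targets and a gene of the hormone receptors are not reported here, and the counts and medians of both lists leave them out. The snoRNA, snRNA and tRNA tables were not used here.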

Additional observations from a re-analysis of the deposited data

Results flagged for a closer look

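For 7 named genes outside the Cyp4a family the fold change differed between kidney and liver by the z-test adjusted over 19100 genes, which 0.817% of genes passed. The errors of both organs were combined as independent although the same mice gave both. All 7 had been picked from their lists for a small adjusted p in kidney or liver. The same fold changes thus chose and tested them, which favours a difference between the organs, and the 7 are given as a description. Each value is the kidney log2 fold change minus that of liver. It was 4.31 ± 1.17 (SE) for Elovl3, a fatty acid elongase (adjusted p of 0.0356), at a mean level of only 0.462 ppm in kidney. Among P450 and related oxidases it was -0.72 ± 0.19 for Cyp4b1 (adjusted p of 0.0233), -1.40 ± 0.38 for Cyp2c38 (adjusted p of 0.0379) and -0.71 ± 0.20 for Fmo2 (adjusted p of 0.0419). The level of Cyp2c38 was only 0.197 ppm in kidney, against 88.1 in liver, and it was not called in kidney (-0.35 ± 0.33). Among marker genes it was 1.51 ± 0.26 for Slc22a7, a transporter of the last tubule segment that liver also expresses (adjusted p of 6.13e-06). It was -0.59 ± 0.16 for Serpina1c of the hepatocyte list (adjusted p of 0.038) and 3.37 ± 0.74 for Cfd of the adipocyte list (adjusted p of 0.00208).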

How the results depend on the processing

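No paired analysis was possible because the tables hold no value per library, and for the same reason no library could be left out in turn. At an adjusted p under 0.01 in place of 0.05, 1 Cyp4a gene remained called in kidney (Cyp4a10) in place of 3 and 4 in liver. The PPAR alpha targets called in kidney then numbered 4 in place of 9. In liver the list around the epoxide route had 1 in place of 3 and the female-biased genes 2 in place of 4. Adjusting over every gene with a p, or over the 5 organs together, ended 1 call among the 6 genes, that of Cyp4a32 in kidney. Adjusting over every gene with a p also left 8 PPAR alpha targets called in kidney in place of 9. Subtracting each organ's median log2 fold change (-0.002 to 0.019) changed 0 calls or directions of the 6 genes in any organ and 0 directions of the 6 organ differences. Leaving mitochondrial genes and the 10 highest genes out of the summed level made Cyp4a10 462 ppm in kidney and 852 in liver. Cyp4a14 then had 91.7 in kidney and 992 in liver. The order of kidney and liver stayed as it was for each gene. At trace level the order of brain and heart turned for Cyp4a12b, from 0.0572 and 0.0438 ppm to 0.0623 and 0.0710. Cyp4a32 in heart went from 0.787 to 1.28 ppm. In the promoters the share of matches was 0.381% for the direct repeat and 16.3% for AGGTCA alone. At under 13 mean counts the fold changes of most Cyp4a genes in brain, heart and spleen have standard errors of 1.22 or more, so that only large differences could be seen there.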
